A study of Mus musculus with 24 samples.

Results

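Untreated, normoxic mouse retinas collected at the 4 h time point were compared with normoxic retinas collected at the 0 h time point of a study of hypoxic preconditioning, a short period of low oxygen given before an injury. The members were chosen by their titles, 3 arrays of normoxic retina at 4 h and 3 of normoxic retina at 0 h, which are 6 of the 24 arrays of the series, and every probe set except the controls was considered, 45037 in all. The mice were BALB/c, an albino strain, homozygous for the leucine variant of Rpe65 that goes with sensitivity to light. Hypoxic animals of the series breathed 6% oxygen for 6 h and were then kept in room air in darkness. The normoxic mice never received low oxygen but were handled alongside them and collected at the same time points, so that 0 h marks the end of the 6 h period and 4 h the collection 4 h later. Retinas of 3 different mice were pooled for an array, and each group had 3 separate pools. The age of the mice, the clock time of collection and the lighting of the normoxic mice are not given in the sources used here. Time of day, light history and handling therefore cannot be told apart in this comparison, which asks how far the untreated baseline itself moved between both collections.

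Gene expression in the retina follows both the light and an internal circadian clock. In that clock the proteins CLOCK and ARNTL switch on genes that carry an E-box in their promoter, among them the Per and Cry genes, whose products feed back to silence CLOCK and ARNTL, and output factors such as DBP carry the rhythm to other genes. Immediate early genes such as Fos and Egr1 are transcribed within minutes of neural activity, light or stress, heat shock genes follow stress to proteins and warming, and the targets of the hypoxia-inducible factor HIF-1 follow a shortage of oxygen. Rods, by far the most numerous retinal cells, are known to use more oxygen in darkness than in light.

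The values are log2 signals, on which a difference of 1 is a 2-fold difference, and they are comparable between arrays for 1 probe set but not between genes. The array medians lay between 5.79 and 5.83. The deposited values had been normalized across arrays, so these medians cannot show whether an array was brighter or dimmer before that step. The mean Euclidean distance between arrays over all probe sets was 59.5 within the 0 h group, 48.5 within the 4 h group and 57.2 between them, so that arrays of different time points were no farther apart than the 0 h arrays were from each other. Photoreceptor genes were bright on all 6 arrays, with Gnat1, the rod transducin, between 14.11 and 14.22. Lens genes were bright as well, and 1 array stood apart in them. The mean of the 18 measured lens genes was 10.64, 7.479 and 11.38 on the 0 h replicates 1, 2 and 3 and 12.04, 11.54 and 11.79 on the 4 h replicates, while on the other 18 arrays of the series it lay between 10.16 and 12.47. Cryaa, a crystallin of the lens, read 13.99, 10.38 and 14.13 at 0 h against 14.30, 14.28 and 14.19 at 4 h. The 0 h replicate 2 pool thus held far less lens RNA than any other pool, and results that rest on it are given with and without that array.

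Between 0 h and 4 h, 394 of 18480 probe sets tested changed (2.13%) at an adjusted p under 0.05 in limma with Benjamini-Hochberg adjustment. At 4 h 140 probe sets were higher (0.758%) and 254 were lower (1.37%), which stand for 103 genes that rose and 219 that fell among 10078 genes tested, with Ppp2r5c, a regulatory subunit of protein phosphatase 2A, in both directions through different probe sets. Rises were fewer but larger. Their median was 0.707 on the log2 scale (range 0.286 to 1.78), while the falls had a median of -0.38, the smallest being 0.213 and the largest 1.27 in size. Only 37 changed probe sets (0.2%) passed 2-fold, 30 of them higher and 7 lower. The median of all probe sets tested was -0.0313, with 7477 positive and 11003 negative changes. Counts of signs in the lists below are to be read beside these. Without the 0 h replicate 2 array 124 probe sets were called, 49 higher and 75 lower, of which 114 were among the 394. With the lens score as a covariate 43 were called, 12 higher and 31 lower, 39 of them among the 394. A call lost with this covariate does not by itself mean that the change became smaller. A change in RNA per cell and a change in the number of cells of a type cannot be told apart in whole retina.

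The 0 h arrays did not overlap the 4 h arrays at 3809 probe sets (20.6%), with the 4 h values wholly above at 1256 (6.8%) and wholly below at 2553 (13.8%), and at all 394 changed probe sets. In 82 of the 140 risen probe sets the 0 h replicate 2 array was the lowest of the 0 h group, against 31 for replicate 1 and 27 for replicate 3. It was the highest of the 0 h group in 103 of the 254 fallen probe sets, against 72 and 79. Left out in turn, the 6 arrays gave 227 and 340 calls without 0 h replicates 1 and 3, and 81, 119 and 141 calls without 4 h replicates 1, 2 and 3. With the replicate number as a block, 528 probe sets were called in the fit of all arrays, but 9 in a fit of these 6 arrays alone.

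**Figure D1:**
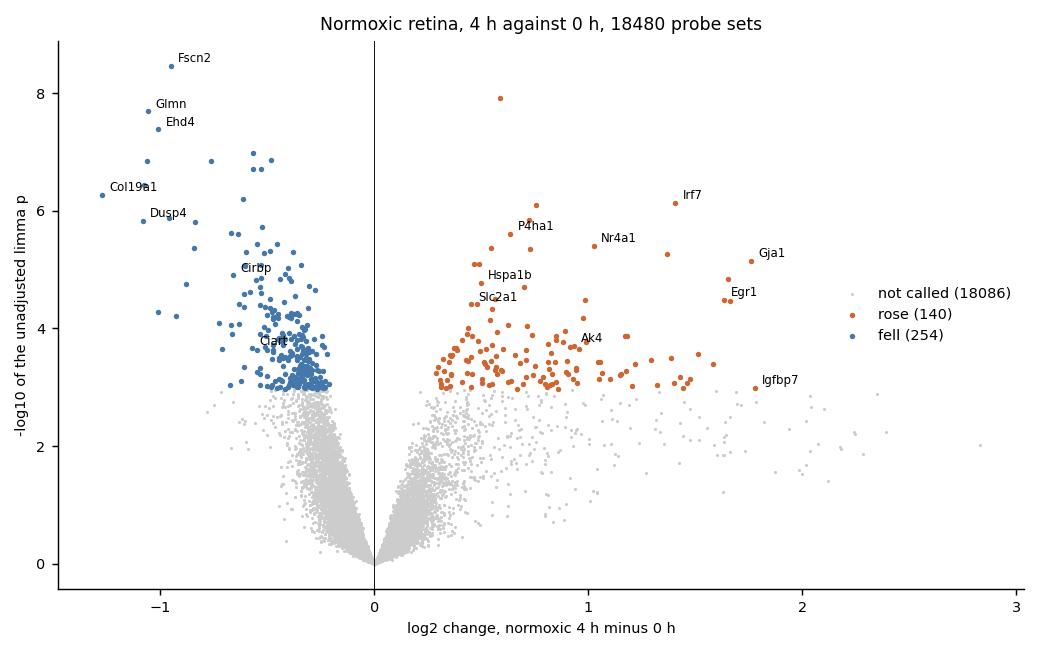
Each point is 1 of 18480 probe sets, with the log2 change from normoxic 0 h to normoxic 4 h on the x axis and -log10 of the unadjusted limma p on the y axis; orange points rose (140), blue points fell (254) and grey points were not called. The falls crowd between 0 and -1.27 with the smallest p at Fscn2, the rises reach 1.78 at Igfbp7, and the grey points to the right of 1.4 include the lens genes.

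Of 11 measured immediate early genes, 5 rose at 4 h and 0 fell (45.5%, against 0.758% of all probe sets rising), 10 of the 11 had a positive change, and their median was 0.413 against -0.0313 over all probe sets. Egr1, a zinc finger transcription factor induced by neural activity, read 8.77, 9.25 and 9.40 at 0 h and 10.64, 10.78 and 10.89 at 4 h. Every 4 h array lay more than 1 unit above every 0 h array, and the change was 1.63 (SE 0.307, adjusted p = 0.00956). For Nr4a1, an orphan nuclear receptor of the same class of rapid genes, the 0 h values of 8.67, 8.59 and 8.50 were followed by 9.66, 9.65 and 9.52. Both groups were tight and well apart (1.02, SE 0.163, adjusted p = 0.00279).

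Fos, whose product forms the AP-1 factor with Jun proteins, read 10.09, 10.19 and 9.49 at 0 h and 10.63, 10.78 and 10.89 at 4 h, with 0 h replicate 3 the lowest (0.85, SE 0.198, adjusted p = 0.0308). Junb, an AP-1 partner, read 6.68, 7.00 and 6.72 and then 7.49, 7.45 and 7.33 (0.62, SE 0.127, adjusted p = 0.0161). Ier2, a small nuclear protein named here because it completes the 5, went from 8.33, 8.42 and 8.34 to 8.71, 8.84 and 9.00 (0.49, adjusted p = 0.00398). None of these genes had overlapping groups. Among the members that did not pass, Dusp6 and Dusp1, phosphatases that switch off MAP kinases, had changes of 0.41 (adjusted p = 0.299) and 0.35 (adjusted p = 0.0845), and Jun 0.33 (adjusted p = 0.214). The only negative value was that of Btg2, an antiproliferative gene, at -0.16. All 5 calls held without 0 h replicate 2, 4 were left without 0 h replicates 1 or 3 or 4 h replicate 3, 3 without 4 h replicates 1 or 2, and 2 with the lens covariate or with the replicate block in these 6 arrays alone. Egr1 and Nr4a1 kept their call without any single array, while Fos lost it without 0 h replicate 3 (adjusted p = 0.101) and without each 4 h array (up to 0.0943), and Junb without 0 h replicate 1 (0.0583) and 4 h replicates 1 and 2 (0.0764 and 0.0582). With the block in these 6 arrays alone Fos had an adjusted p of 0.117 and Junb of 0.0709, and with the lens covariate Egr1 had 0.121.

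**Figure D2:**
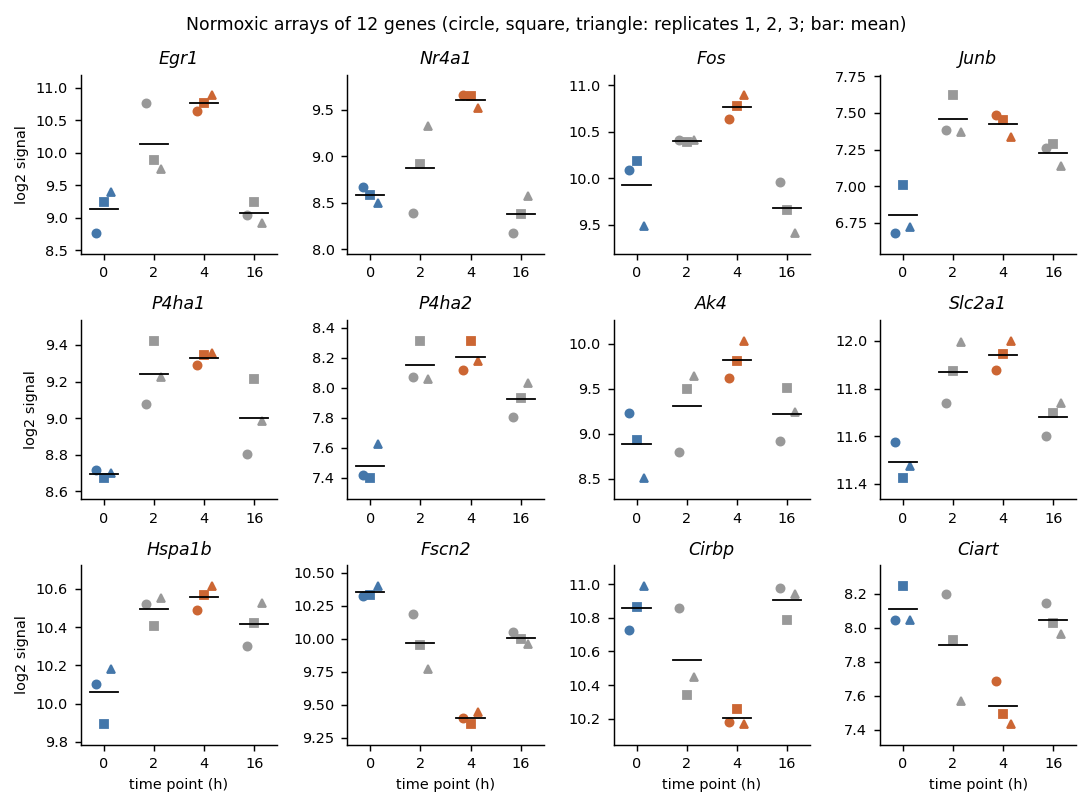
Log2 signal (y axis, scaled to each gene) of 12 genes on the 12 normoxic arrays at 0, 2, 4 and 16 h (x axis, not to scale); circles, squares and triangles are replicates 1, 2 and 3, bars are group means, and 0 h is blue and 4 h orange. Egr1, Nr4a1 and Fos peak at 4 h and are back near the 0 h values at 16 h, Fscn2 and Cirbp are lowest at 4 h, and the 0 h and 4 h arrays overlap in none of the 12 genes.

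Genes known for day and night rhythms in the retina gave 2 rises and 0 falls among 8 measured, Nr4a1 and Gnaz, with a median of 0.208 (0.758% of all probe sets rose). Gnaz, an inhibitory G protein subunit, read 10.21, 10.21 and 10.08 at 0 h and 10.61, 10.66 and 10.71 at 4 h (0.49, SE 0.111, adjusted p = 0.0256). Its groups did not overlap, but its call was lost without each of the 6 arrays in turn, with an adjusted p of up to 0.0785, and with the replicate block in these 6 arrays alone (0.08). Drd4, the dopamine receptor of photoreceptors, had 0.42 (adjusted p = 0.0512) at its brightest probe set and rose by 0.51 at another (adjusted p = 0.0325). Penk, the enkephalin precursor, had 0.74 (adjusted p = 0.191). Of 9 measured targets of cyclic AMP signalling 2 rose, Nr4a1 and Fos, against 0.758% of all probe sets, and the median of the list was -0.0986, but 0.0244 without 0 h replicate 2 and 0.0585 with the lens covariate.

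The core clock did not pass the test in any member. Of 13 measured genes 0 rose and 0 fell in limma, and 0 had an unadjusted p under 0.05. The changes had a median of -0.0145 (0.0448 with the lens covariate), with 5 positive and 8 negative. Over all 18480 probe sets tested 7477 were positive and 11003 negative. Clock read 9.61, 9.77 and 9.63 at 0 h and 9.58, 9.60 and 9.78 at 4 h (-0.01, SE 0.082), with the groups interleaved. Arntl, its partner, read 9.71, 9.83 and 9.96 and then 9.81, 9.86 and 9.91 (0.02, SE 0.095). Among the repressors, Per1 had -0.12 (SE 0.164), Per2 -0.11 (SE 0.137) and Per3 0.12 (SE 0.244). Cry1 had -0.18 (SE 0.117) and Cry2 -0.06 (SE 0.076). The nuclear receptors that tie the loops together, Nr1d1, Nr1d2, Rora and Rorb, had -0.20, -0.00, 0.07 and 0.28, and the kinases that mark PER proteins for breakdown, Csnk1d and Csnk1e, had 0.01 and -0.03. Per3 varied most, since 0 h replicates 1 and 2 alone were at 8.11 and 9.52.

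In the output of the clock, 2 of 14 measured genes fell, 14.3% against 1.37% of all probe sets, and 0 rose, with a median of -0.0377. Ciart, a repressor of CLOCK and ARNTL, read 8.04, 8.24 and 8.05 at 0 h and 7.69, 7.49 and 7.43 at 4 h. All 4 h values lay below all 0 h values (-0.57, SE 0.128, adjusted p = 0.0253). Dbp, a transcription factor that binds D-boxes, read 11.84, 12.02 and 11.84 and then 11.64, 11.61 and 11.64 (-0.27, SE 0.065, adjusted p = 0.0369). The D-box factors beside it, Tef and Hlf, had 0.02 and -0.06, and Nfil3, which competes for the same element, had 0.21. Both calls were lost without 0 h replicate 2 (adjusted p = 0.117 for Ciart and 0.191 for Dbp) with the lens covariate (0.185 and 0.402) and with the block in these 6 arrays alone (0.0827 and 0.191). Ciart also lost its call without 4 h replicates 2 and 3 (0.0788 and 0.0834), and Dbp kept its own only without 0 h replicate 3 (0.041).

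The promoter of Ciart is shown because it carries the letters of the E-box, CACGTG, more often than any other named gene that changed. The window holds the 250 bases before the start of the gene (RefSeq, GRCm38.p6, chr3:95882229-95882478, minus strand), with the E-boxes in capitals at positions -116, -58 and -44 from the start.
Ciart: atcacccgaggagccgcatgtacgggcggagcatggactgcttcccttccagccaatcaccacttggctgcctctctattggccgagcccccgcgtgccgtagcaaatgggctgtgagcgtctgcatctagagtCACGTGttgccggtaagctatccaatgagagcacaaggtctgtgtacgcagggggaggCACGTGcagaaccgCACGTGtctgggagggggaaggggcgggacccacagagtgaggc
The E-box letters stood in the window of 854 of 8216 tested genes that have one (10.4%), of 5 of 87 genes that rose (5.75%) and of 27 of 182 that fell (14.8%), and in 6.02% of all 32851 windows. The D-box, TTANGTAA, stood in 1.56% of tested genes, in 6 of the 87 risen genes (6.9%) and in 3 of the 182 fallen genes (1.65%), against 2.06% of all windows. The cyclic AMP element, TGACGTCA, stood in 3.26%, 1.15% and 4.95% of the same groups and in 1.55% of all windows. Both strands were searched, which for the D-box adds the letters TTACNTAA while the other motifs read the same on either strand. A match is a description of letters, and genes can have several windows. Of the 44 named genes that changed, 39 have a window and 5 hold one of the motifs searched.

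Of 15 measured genes of the heat shock response, 3 rose at 4 h and 0 fell (0.758% of all probe sets rose), and all 15 had a positive change with a median of 0.234. Hspa1b, an inducible HSP70 chaperone, read 10.10, 9.89 and 10.18 at 0 h and 10.49, 10.57 and 10.62 at 4 h. The groups were apart, and the change was 0.50 (SE 0.089, adjusted p = 0.00627). Hspa1a, its near-identical neighbour, went from 9.59, 9.55 and 9.64 to 9.90, 10.10 and 10.02 (0.41, SE 0.104, adjusted p = 0.0455). Chordc1, a partner of the HSP90 chaperone, went from 9.56, 9.52 and 9.55 to 9.95, 9.95 and 9.81 (0.36, SE 0.088, adjusted p = 0.0399). Hspa8, the constitutive HSP70, had 0.28 (adjusted p = 0.0682), and Dnajb1, an HSP40 partner of HSP70, 0.16 (adjusted p = 0.167). The largest values of the list, 1.59 for Cryab and 0.90 for Hspb1, did not pass (adjusted p = 0.14 and 0.433), and Cryab is also a lens gene that read 9.88 on 0 h replicate 2 and 13.31 or more on the other 5 arrays. Only Hspa1b kept its call without any single array. Hspa1a and Chordc1 lost theirs without each of the 6 (up to 0.16 and 0.154), and all 3 were lost with the lens covariate and with the block in these 6 arrays alone (0.0874 for Hspa1b, 0.11 and 0.117).

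The promoters of both HSP70 genes are shown because the arrays may not separate the genes. Their windows of 250 bases are identical at 247 positions (98.8%), and each holds the heat shock element letters GAANNTTC once, in capitals, at position -104 from the start. Hspa1b is at chr17:34959239-34959488 and Hspa1a at chr17:34972157-34972406, both on the minus strand (RefSeq, GRCm38.p6).
Hspa1b: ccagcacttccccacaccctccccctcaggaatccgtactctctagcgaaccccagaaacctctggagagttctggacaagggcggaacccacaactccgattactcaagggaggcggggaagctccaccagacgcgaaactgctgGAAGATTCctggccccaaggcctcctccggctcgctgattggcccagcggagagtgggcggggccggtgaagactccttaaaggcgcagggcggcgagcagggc
Hspa1a: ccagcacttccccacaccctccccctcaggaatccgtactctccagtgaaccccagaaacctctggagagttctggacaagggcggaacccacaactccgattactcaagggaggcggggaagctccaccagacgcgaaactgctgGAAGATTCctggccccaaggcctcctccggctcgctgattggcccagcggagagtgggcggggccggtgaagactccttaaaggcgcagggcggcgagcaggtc
Those letters stood in 6.02% of tested genes, in 7 of 87 risen genes (8.05%), in 8 of 182 fallen genes (4.4%) and in 6.69% of all windows. Whether the 2 genes share probes or targets on the arrays was not tested, so that their values may not be independent.

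Of the unfolded protein response, 2 of 15 measured genes rose and 0 fell, with a median of 0.0771 (0.758% of all probe sets rose). Hspa5, the HSP70 of the endoplasmic reticulum, read 11.72, 11.56 and 11.62 at 0 h and 11.99, 12.05 and 12.01 at 4 h (0.38, SE 0.086, adjusted p = 0.0253). Xbp1, a transcription factor of the same response, went from 10.88, 10.63 and 10.78 to 11.02, 11.12 and 11.08 (0.31, SE 0.077, adjusted p = 0.0444). Neither gene had overlapping groups. Both calls held without 0 h replicate 1 and were lost without any of the other 5 arrays, without 0 h replicate 2 at adjusted p of 0.116 and 0.211, and 1 of the 2 was lost with median centring. Both were lost with the lens covariate (0.302 and 0.351) and with the block in these 6 arrays alone (0.114 and 0.186).

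Cirbp, an RNA binding protein whose transcript rises in the cold and falls in the warm, fell. It was the only measured gene of the 2 listed as cold-inducible, since the other had no probe set assigned to it alone. The result is thus that of 1 gene. The 0 h values of Cirbp were 10.73, 10.87 and 10.99 and its 4 h values 10.18, 10.26 and 10.17, with no overlap (-0.66, SE 0.115, adjusted p = 0.00534). The call held without any single array (adjusted p up to 0.0325) and was lost with the lens covariate (0.0725) and with the block in these 6 arrays alone (0.0584). None of the 13 measured glucocorticoid-induced genes passed in limma (1 at an unadjusted p under 0.05), and Sgk1, a kinase induced by the hormone, read 12.62, 12.62 and 12.58 at 0 h and 12.54, 12.71 and 12.59 at 4 h.

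In these mice, which had received no low oxygen, 4 of 14 measured HIF-1 targets rose at 4 h and 0 fell (0.758% of all probe sets rose), all 14 had a positive change, and the median was 0.303. P4ha1, a subunit of collagen prolyl hydroxylase, read 8.72, 8.67 and 8.70 at 0 h and 9.29, 9.34 and 9.36 at 4 h. This was a gap of over 0.5 between tight groups (0.64, SE 0.098, adjusted p = 0.00199). P4ha2, its isoform, went from 7.42, 7.40 and 7.62 to 8.12, 8.31 and 8.17 (0.72, SE 0.107, adjusted p = 0.00151). Slc2a1, the glucose transporter GLUT1, went from 11.57, 11.42 and 11.48 to 11.88, 11.95 and 12.00 (0.45, SE 0.086, adjusted p = 0.0106), and another probe set of Slc2a1 rose by 0.59 with the smallest adjusted p of any rise, 0.00011.

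Ak4, a mitochondrial adenylate kinase, was the most variable of the 4. It read 9.23, 8.93 and 8.51 at 0 h and 9.63, 9.81 and 10.04 at 4 h, without overlap (0.93, SE 0.206, adjusted p = 0.0244). Those not passing included Egln1, the prolyl hydroxylase that marks HIF for breakdown (0.38, adjusted p = 0.105), Vegfa, the vascular growth factor (0.35, adjusted p = 0.128), and Bnip3, a mitophagy receptor (0.34, adjusted p = 0.0808). Pdk1 and Ldha, which steer pyruvate away from mitochondria, had 0.20 and 0.16. P4ha1 and P4ha2 kept their call without any single array. Ak4 was called without 0 h replicate 1 alone (0.0185) and lost its call without each of the other 5 arrays (up to 0.0856), and Slc2a1 lost it without 0 h replicate 2 (0.0536). Left out in turn, the arrays gave 2 to 6 calls in the list, 2 without 0 h replicate 2 and 6 without 0 h replicate 1, the lens covariate left 1 (P4ha2) and the block in these 6 arrays alone left 0 (adjusted p = 0.0584 for P4ha1 and for P4ha2, 0.0919 for Slc2a1 and 0.124 for Ak4). None of 16 measured glycolysis genes passed in limma (7 at an unadjusted p under 0.05), and their median was 0.152, with Aldoa, an aldolase, at 0.03 and Pkm, pyruvate kinase, at -0.02.

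The listed rod and cone genes moved little, though some photoreceptor genes outside these lists, such as Fscn2 below, fell more. Of 19 measured rod genes 0 rose and 2 fell (1.37% of all probe sets fell), and the median was -0.0725. A negative change was seen in 15 of them, against 11003 of all 18480 probe sets tested. Cngb1, a subunit of the rod cGMP-gated channel, read 11.90, 11.86 and 11.84 at 0 h and 11.59, 11.58 and 11.59 at 4 h. The change of -0.28 was small but far larger than the spread of the arrays (SE 0.051, adjusted p = 0.00741), and it held without any single array but not with the lens covariate (0.109) or the block in these 6 arrays alone (0.15). Guca1a, which activates the guanylate cyclase of photoreceptors, read 13.72, 13.72 and 13.73 and then 13.56, 13.45 and 13.43 (-0.24, SE 0.054, adjusted p = 0.0239). Its call was lost without 0 h replicates 1 and 2 and 4 h replicates 2 and 3 (adjusted p up to 0.0823). It was also lost with the lens covariate (0.132), where the change was -0.26 and thus no smaller, and with the block in these 6 arrays alone (0.192). Gnat1 had -0.02 and Pde6b, a rod phosphodiesterase subunit, -0.08.

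Of 8 measured cone genes 0 rose and 1 fell (1.37% of all probe sets fell), and the median was -0.171. A negative change was seen in 7 of them, against 11003 of all 18480 probe sets tested. Gnat2, the cone transducin, read 11.57, 11.62 and 11.51 at 0 h and 11.35, 11.30 and 11.32 at 4 h (-0.25, SE 0.063, adjusted p = 0.0465). Its groups did not overlap, but the call was lost without each of the 6 arrays (up to 0.182), with the lens covariate (0.401) and with the replicate block over all arrays (adjusted p = 0.0611) or in these 6 arrays alone (0.187). The cone opsins Opn1sw and Opn1mw had -0.19 and -0.18 (adjusted p = 0.135 and 0.458). By its brightest probe set no gene passed in limma among 12 Müller glia (3 at an unadjusted p under 0.05), 9 bipolar (1), 9 amacrine and horizontal (0), 11 ganglion cell (1), 7 endothelial and pericyte (0), 5 microglia (0) and 4 reactive glia genes (0) measured. Vim, the intermediate filament of Müller glia, however, rose by 0.79 at a dimmer probe set (adjusted p = 0.043) and had 0.77 (adjusted p = 0.0664) at its brightest, where 0 h replicate 2 was at 10.76 against 11.39 or more elsewhere.

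**Figure D3:**
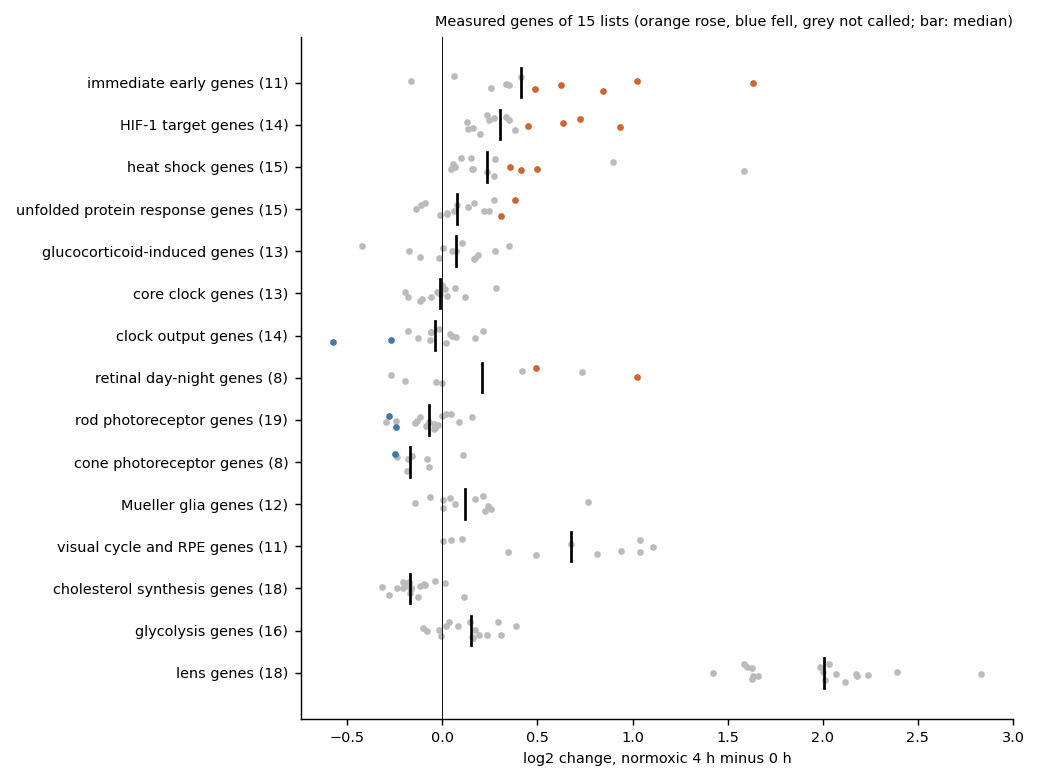
Log2 change from normoxic 0 h to 4 h (x axis) of each measured gene in 15 gene lists (y axis, number measured in parentheses); orange genes rose, blue genes fell, grey genes were not called, and black bars are list medians. The 14 HIF-1 targets and 15 heat shock genes all lie to the right of 0, the core clock is centred on it, and the 18 lens genes lie beyond 1.4 with 0 called.

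The gene with the smallest p of all was Fscn2, which bundles actin in photoreceptors. It read 10.32, 10.33 and 10.40 at 0 h and 9.40, 9.35 and 9.44 at 4 h, a difference far larger than the spread within either group (-0.95, SE 0.096, adjusted p = 6.3e-05). Col19a1, a non-fibrillar collagen that neurons make, had the largest fall, from 9.40, 9.51 and 9.69 to 8.06, 8.45 and 8.26 (-1.27, SE 0.177, adjusted p = 0.000828). Dusp4 and Ptprr are phosphatases that switch off MAP kinases. Dusp4 went from 9.06, 9.31 and 8.61 to 7.87, 8.02 and 7.84 (-1.08, adjusted p = 0.00151). Ptprr went from 8.54, 8.70 and 8.58 to 7.39, 7.76 and 7.49 (-1.06, adjusted p = 0.000328). Neither overlapped.

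Glmn, an inhibitor of a cullin ubiquitin ligase, read 10.30, 10.27 and 10.72 at 0 h and 9.41, 9.35 and 9.35 at 4 h (-1.06, adjusted p = 0.000126). Ehd4, an ATPase of endosome traffic, went from 8.15, 8.26 and 8.37 to 7.32, 7.32 and 7.12 (-1.01, adjusted p = 0.00019). Taf4b, a subunit of the general factor TFIID, went from 9.79, 10.13 and 10.11 to 9.17, 9.34 and 9.23 (-0.76, adjusted p = 0.000328). In each of these the highest 4 h array was over 0.4 below the lowest 0 h array. Pdzph1 had -0.96 (adjusted p = 0.00151), with 0 h values of 10.87, 10.44 and 11.16 that were more spread than its 4 h values of 9.98, 9.81 and 9.81, and Dleu7 went from 8.03, 7.71 and 8.10 to 6.84, 7.01 and 6.76 (-1.08, adjusted p = 0.000605). Med13l, a part of the Mediator kinase module, had -0.93 (adjusted p = 0.0132). St8sia1, which makes a ganglioside, had -0.88 (adjusted p = 0.00632) and Clca1, a secreted protease, -0.73 (adjusted p = 0.0157), with 4 h means under the signal threshold of 6.69, so that their changes give no exact ratio. Of these 12 largest falls, 9 kept their call without any single array, the exceptions being Med13l without 0 h replicate 2 and 4 h replicates 1 and 3 (up to 0.0704), St8sia1 without 4 h replicate 1 (0.0557) and Clca1 without 0 h replicate 2 and 4 h replicate 1 (0.0769 and 0.0969). With the lens covariate 10 of the 12 were still called, the others being Med13l and Clca1. With the block in these 6 arrays alone Fscn2, Col19a1, Ptprr and Med13l were still called, while Ehd4 (0.0544), Dusp4, Glmn and Taf4b (0.0572 each), Dleu7 (0.0584), Pdzph1 (0.0709), St8sia1 (0.0653) and Clca1 (0.053) were not.

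The largest rises differed in how far they rested on 0 h replicate 2. Irf7, a transcription factor of the interferon response, read 7.13, 7.73 and 7.29 at 0 h and 8.78, 8.81 and 8.78 at 4 h. All 4 h values were over 1 above every 0 h value (1.41, SE 0.199, adjusted p = 0.000977), and the call held without any single array and with the lens covariate. Gja1, the gap junction protein connexin 43, read 6.41, 6.32 and 7.20 at 0 h and 8.44, 8.52 and 8.26 at 4 h (1.76, SE 0.293, adjusted p = 0.00371), with 0 h replicate 2 the lowest by a small margin and a 0 h mean under the threshold. It also kept its call without any single array, though its adjusted p was 0.0987 with the lens covariate and 0.0584 with the block in these 6 arrays alone, where Irf7 had 0.0386.

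In the other 9 of the 12 largest rises beside Egr1, Irf7 and Gja1, 0 h replicate 2 was the lowest of the 6 arrays. Igfbp7, a secreted matrix protein, read 10.62, 7.91 and 10.23 at 0 h and 11.54, 11.57 and 10.99 at 4 h (1.78, SE 0.464, adjusted p = 0.0492). Col4a1, a basement membrane collagen, read 9.34, 7.33 and 9.04 and then 10.14, 10.16 and 9.83 (1.48, SE 0.37, adjusted p = 0.0441). Phgdh, the first enzyme of serine synthesis, read 7.99, 6.25 and 7.95 and then 9.03, 9.13 and 8.57 (1.51, SE 0.345, adjusted p = 0.0275). In all 3 genes the 2 remaining 0 h arrays still lay below the 4 h arrays, but without 0 h replicate 2 the changes were 0.94, 0.86 and 0.94 and did not pass (adjusted p = 0.197, 0.191 and 0.117). Igfbp7 and Col4a1 also lost their call without any 4 h array, and Phgdh without 4 h replicates 1 and 2. With the block in these 6 arrays alone the adjusted p was 0.203 for Igfbp7 and 0.174 for Col4a1 and for Phgdh.

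Nid1, which links basement membrane proteins, had 1.40 (adjusted p = 0.0465), and Islr, a secreted leucine-rich protein, 1.58 (adjusted p = 0.0326). Scel, a protein of the cornified envelope, had 1.46 (adjusted p = 0.0469). Wls, which carries Wnt proteins to the cell surface, had 1.43 (adjusted p = 0.0421), Dmrta2, a transcription factor of the forebrain and eye, 1.44 (adjusted p = 0.0492), and Htra3, a secreted protease, 1.32 (adjusted p = 0.0469). Pdgfra was the 1 of 7 measured fibroblast genes that rose (0.758% of all probe sets rose). It read 7.85, 7.32 and 7.79 and then 8.38, 8.74 and 8.37 (0.85, SE 0.216, adjusted p = 0.0465). None of these 7 calls held without 0 h replicate 2, where the adjusted p lay between 0.17 and 0.238, nor did any hold without a 4 h array. Nid1 also lost its call without 0 h replicate 1 (0.0563). Scel and Pdgfra lost theirs without each of the 6 arrays. With the block in these 6 arrays alone the adjusted p of the 7 lay between 0.0712 for Scel and 0.179 for Dmrta2 and Htra3. The 0 h means of Islr, Scel, Dmrta2, Wls and Htra3 were under the signal threshold. All 18 measured lens genes had a positive change with a median of 2.01, but 0 passed in limma (17 at an unadjusted p under 0.05), though 10 were called without 0 h replicate 3. Cryba1, for example, read 13.62, 9.93 and 14.05 at 0 h (1.63, SE 0.609, adjusted p = 0.171). The part of lens RNA in the rises was not tested beyond the covariate and the left-out array.

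**Figure D4:**
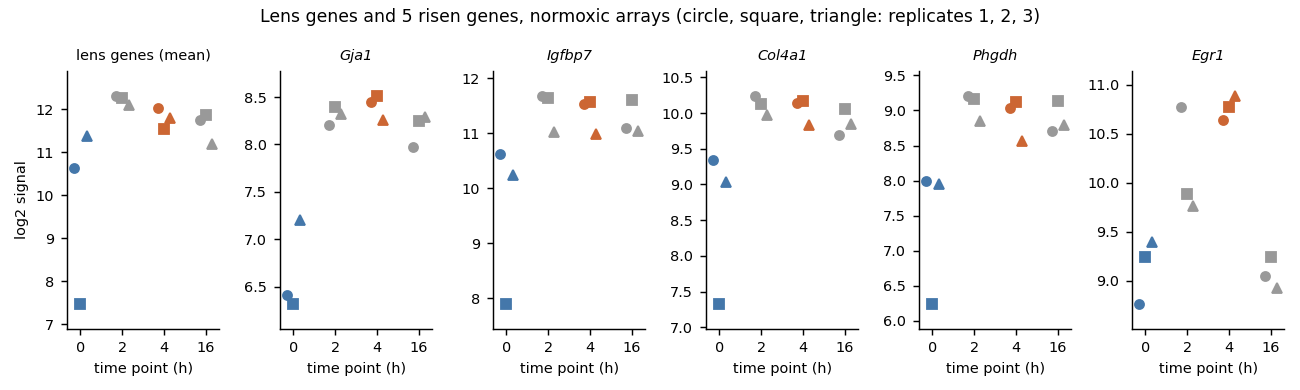
Log2 signal (y axis) of the mean of 18 lens genes and of 5 genes that rose on the 12 normoxic arrays at 0, 2, 4 and 16 h (x axis); circles, squares and triangles are replicates 1, 2 and 3, and 0 h is blue and 4 h orange. The 0 h replicate 2 array (blue square) is lowest in the lens mean (7.479), Igfbp7, Col4a1 and Phgdh, lies beside replicate 1 in Gja1, and is not the lowest in Egr1.

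Genes of the retinal pigment epithelium, which lies against the retina and can be carried along in dissection, had positive changes in all 11 measured members with a median of 0.676, but 0 passed in limma (2 at an unadjusted p under 0.05). Rpe65, the isomerase of the visual cycle, read 5.41, 6.08 and 5.86 at 0 h and 7.71, 6.91 and 5.85 at 4 h, and Ttr, the carrier of thyroid hormone and retinol, 8.04, 9.04 and 8.25 and then 10.63, 9.58 and 8.22. The 4 h replicates differed from each other in both genes by more than the groups did (1.04 in each, adjusted p = 0.356 and 0.348). Of 18 measured cholesterol synthesis genes 16 had a negative change (median -0.168), against 11003 of all 18480 probe sets tested. None passed in limma (6 at an unadjusted p under 0.05).

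The other normoxic time points were compared as well. Every comparison of them below shares arrays with that of 4 h and 0 h, which calls for caution. From 0 h to 2 h 92 probe sets changed (0.497%), 72 higher (0.389%) and 20 lower (0.108%), and from 2 h to 4 h 16 did (0.0867%). The calls from 0 h to 2 h fell to 0 in limma without 0 h replicate 2 and with the lens covariate (2556 with all arrays at an unadjusted p under 0.05). The 2 h mean lay between the 0 h and 4 h means in 242 of the 254 probe sets that fell. It did so in 88 of the 140 that rose. These probe sets were selected for 0 h and 4 h values far apart, which by itself tends to place another group's mean between them. The share over all probe sets was not computed, so these counts do not show a gradual course. The same selection bears on the calls at 2 h and 16 h among these probe sets. From 0 h to 2 h, 44 of the 140 risen probe sets rose and 10 of the 254 fallen ones fell. Egr1 read 10.77, 9.89 and 9.76 at 2 h, with replicate 1 already at the 4 h level. P4ha2 and P4ha1 had risen by 2 h (0.67 and 0.55, adjusted p = 0.0252 and 0.0338), calls that were lost without 0 h replicate 2 (0.63 and 0.53, adjusted p = 0.105 and 0.119), while Ciart and Cirbp had -0.21 and -0.31 and did not pass.

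From 4 h to 16 h 977 probe sets changed (5.29%), 449 higher (2.43%) and 528 lower (2.86%). Of the 140 that had risen 26 were called lower at 16 h than at 4 h. Of the 254 that had fallen 73 were called higher and 1 lower. Because these probe sets were selected partly for their 4 h values, such counts cannot separate a true return from the effect of that selection. Egr1 fell by 1.70 to a 16 h mean of 9.07, Nr4a1 fell by 1.24 and Irf7 fell by 0.97. Fscn2 rose by 0.61, Cirbp by 0.70 and Ciart by 0.51, all past the threshold. From 0 h to 16 h 989 changed (5.34%), 277 higher and 712 lower, or 351 and 541 after quantile normalization, and without 0 h replicate 2 326 changed. Among the 140 risen probe sets 36 were called higher at 16 h than at 0 h, and among the 254 fallen 35 were called lower. Igfbp7 and Phgdh had 16 h means of 11.25 and 8.88, higher than at 0 h by 1.66 and 1.48 (adjusted p = 0.0422 and 0.0215), but by 0.82 and 0.90 without 0 h replicate 2, where neither was called (0.15 and 0.0732).

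The hypoxic arrays share none with the normoxic ones and give the same interval after 6 h at 6% oxygen. Their 0 h arrays mark the end of that exposure, so a hypoxic change can rest on a 0 h level unlike the normoxic one. In the hypoxic arrays 7181 of 18801 probe sets tested changed from 0 h to 4 h (38.2%), 3601 higher (19.2%) and 3580 lower (19%). Of the 250 normoxic falls tested in the hypoxic arrays, 204 had the same sign (81.6%), 154 also fell and 17 rose. Of 136 normoxic rises tested, 91 had the same sign (66.9%), 43 also rose and 20 fell. Over all 18193 probe sets tested in both, 50.1% had a positive and 49.9% a negative hypoxic change. The median hypoxic change was -0.322 over the fallen probe sets and 0.156 over the risen ones. The change differed between hypoxic and normoxic retina at 3661 of 19088 probe sets tested (19.2%) and at 59 of the 140 risen and 85 of the 254 fallen ones. The risen and fallen probe sets were selected for large normoxic changes, which this difference also contains. That selection by itself tends to raise their counts, so these cannot be set against the share over all probe sets.

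Several immediate early genes and several of the leading falls had the same direction in hypoxic retina, though not all of the leading falls did. Egr1 rose by 1.85 in hypoxic retina, from 10.46, 8.74 and 9.62 to 11.58, 11.45 and 11.34, Nr4a1 by 1.28, Fos by 1.04 and Junb by 0.49. For none of these 4 was the difference from normoxic retina called (adjusted p from 0.50 for Nr4a1 to 0.78 for Egr1). Fscn2 fell by 1.38 in hypoxic retina and Col19a1 by 1.57, Dusp4 by 1.71, Ptprr by 1.03 and Cirbp by 0.98. Of these only the difference of Fscn2 from normoxic retina was called with all arrays (-0.43, adjusted p = 0.0304). Without normoxic 0 h replicate 2 it was not called (adjusted p = 0.056). The difference of Dusp4 was -0.63 with all arrays (adjusted p = 0.0592), and it was called without that array (-0.79, adjusted p = 0.0194). Pdzph1, which fell in normoxic retina, had 0.22 in hypoxic retina (difference 1.18, adjusted p = 0.00038).

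HIF-1 targets differed between the conditions. The median of the 14 was -0.777 in hypoxic retina against 0.303 in normoxic retina. Ak4 fell by 1.70, P4ha2 by 0.85 and Slc2a1 by 0.39 in hypoxic retina, and P4ha1 had -0.20. All 4 differences were called, between -2.63 for Ak4 and -0.84 for P4ha1 and Slc2a1. Egln1 and Vegfa, which had not passed in normoxic retina, fell by 1.63 and 0.80. At 4 h P4ha2 read 8.12, 8.31 and 8.17 in normoxic and 7.77, 7.98 and 7.80 in hypoxic retina, so that the hypoxic values were the lower ones. Since it fell by 0.85 to these hypoxic values, its hypoxic mean at 0 h lay above every normoxic value at 0 h. Its difference thus holds unlike levels at both 0 h and 4 h.

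The 3 heat shock genes that rose in normoxic retina rose more after hypoxia, Hspa1b and Hspa1a by 1.55 each and Chordc1 by 1.11, and the differences of 1.06, 1.13 and 0.76 were called, while the median of all 15 was 0.16 in hypoxic and 0.234 in normoxic retina. Hspa5 had -0.19 (difference -0.57, adjusted p = 0.0025). In the clock output, Ciart fell by 2.45 in hypoxic retina, from 9.69, 9.24 and 9.56 to 6.98, 7.09 and 7.07, while the normoxic fall was 0.57. The median of the 14 clock output genes was -0.623 in hypoxic and -0.0377 in normoxic retina. Such a gap was not particular to clock output, since the 13 glucocorticoid-induced genes had medians of -0.64 and 0.0739. For clock output the signal was also compared by array. The mean signal of the clock output genes lay between 10.08 and 10.2 on the hypoxic 0 h arrays, above the 9.614 to 9.683 of the normoxic 0 h arrays. At 4 h it lay between 9.443 and 9.495 in hypoxic and between 9.537 and 9.64 in normoxic retina. Dbp, in contrast, had -0.02 in hypoxic retina (adjusted p of the difference 0.067). Bhlhe40, Nampt and Usp2, which had -0.06, 0.04 and -0.13 in normoxic retina, fell by 1.10, 1.07 and 1.27 after hypoxia. Gnat2 fell by 0.72 there, against 0.25 in normoxic retina (adjusted p of the difference 0.00092), and Cngb1 and Guca1a by 0.25 and 0.21. Among the rises in which 0 h replicate 2 was lowest, Phgdh, Dmrta2 and Htra3 had -0.13, -0.13 and -0.08 in hypoxic retina and Igfbp7 and Col4a1 0.26 and 0.13, and the hypoxic lens mean lay between 10.54 and 12.47 at 0 h and between 10.72 and 11.76 at 4 h.

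**Figure D5:**
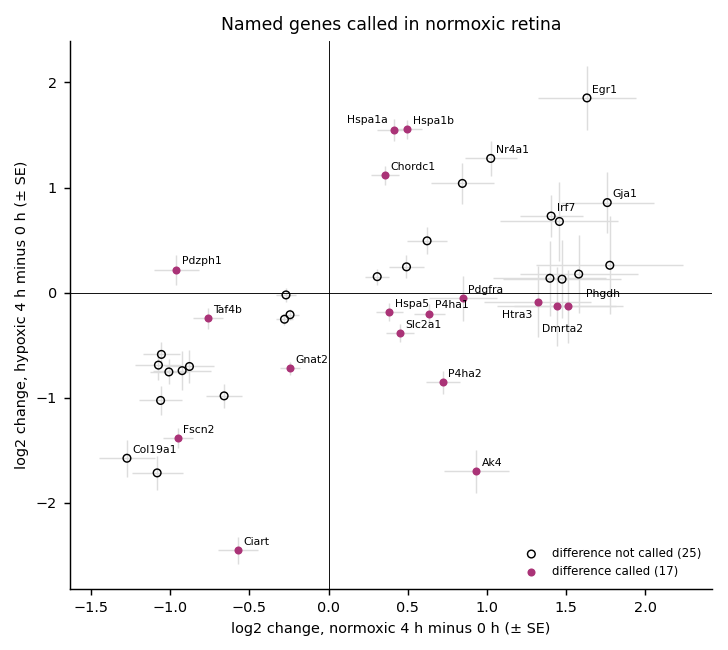
Log2 change from 0 h to 4 h in normoxic (x axis) and hypoxic (y axis) retina, each with its SE as a bar, for 42 named genes called in normoxic retina and tested in both; filled points are the 17 whose change differed between hypoxic and normoxic retina, open points the 25 for which the difference was not called. Egr1 and Nr4a1 lie high and Col19a1 low on both axes, Ak4 and P4ha2 lie right of 0 but below it, and Ciart fell by 2.45 in hypoxic and by 0.57 in normoxic retina.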

How the data were processed

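Retinal RNA from pools of BALB/c mice had been hybridised to 24 Affymetrix arrays. The authors deposited log2 values from RMA (background correction, normalization across arrays, probes summarised per probe set), with no version given in the sources used here. The paper's own lists came from GCRMA, not used here. The members and gene lists were chosen with earlier results of these data known.

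A linear model with 1 mean per group was fitted to all 24 arrays (limma 3.58.1, R 4.3.3, 16 residual degrees of freedom), with eBayes and Benjamini-Hochberg adjustment across what was tested. Probe sets entered when either group's mean reached 6.69, the density minimum between peaks at 3.81 and 7.90. The 64 controls were left out. Symbols came from the array annotation (34945 probe sets with 1 gene, 932 with several, 9160 with none), and 34741 matched by identifier with 0 symbols changed. A listed gene is its brightest probe set with 1 gene. The script was tested on simulated data.

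Genes were named by rule: the 12 largest rises and falls whose arrays did not overlap, all clock genes, and from each other list at most 4 changed genes by size of change, or the brightest 2 if none had changed. Genes beyond this were chosen after their values were seen.

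The labels do not say what a replicate number shares, and pools held different mice, but normoxic 0 h and 4 h arrays of the same number deviated together (correlations 0.189 to 0.223, 6 of 6 arrays correlating best with their own number). Blocked values are therefore given beside the named genes whose call they change. The alternatives were other filters, scalings, thresholds, sets of arrays, weights and the methods' t-test. The number of arrays limits the precision, and p-values measure the spread between pools.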

Additional observations from a re-analysis of the deposited data

Results flagged for a closer look

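The change from 0 h to 4 h was set against that of the hypoxic arrays by a limma contrast of both changes, adjusted over all probe sets tested at either, and 3661 probe sets passed. Of the 110 named genes 35 passed, 18 of which had changed in normoxic retina and 17 had not. Genes called in normoxic retina were selected by values that this contrast also contains, so the 2 counts cannot be compared. Opposite signs were seen in 18 of those tested in both. These include genes not called in normoxic retina, such as Nr1d2 (normoxic change -0.003849) and Arntl (0.02258), whose normoxic sign means little. Without normoxic 0 h replicate 2, 29 of the 35 were still called and 0 reversed. Values below are the hypoxic minus the normoxic log2 change. Such a difference can rest on unlike levels at 0 h, the end of the low oxygen, as well as on unlike levels at 4 h. Of the genes that rose in normoxic retina, Phgdh had -1.64, Dmrta2 -1.57, Htra3 -1.40 and Pdgfra -0.90, the HIF-1 targets Ak4 -2.63, P4ha2 -1.58, P4ha1 -0.84 and Slc2a1 -0.84, and Hspa5 -0.57, while the heat shock genes Hspa1b, Hspa1a and Chordc1 had 1.06, 1.13 and 0.76. Of the genes that fell, Ciart had -1.88, Gnat2 -0.47 and Fscn2 -0.43, while Pdzph1 had 1.18 and Taf4b 0.52. Clca1 had 0.99, but its hypoxic means (6.38 and 6.64) and its normoxic 4 h mean were under the signal threshold, so that this is no exact difference. Without normoxic 0 h replicate 2 Phgdh had -1.07 (adjusted p = 0.0437), and the calls of Dmrta2 (-0.98, adjusted p = 0.114), Htra3 (-0.89, 0.125), Pdgfra (-0.74, 0.117) and Fscn2 (-0.42, 0.056) were lost.

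Of the clock genes that had not changed in normoxic retina, Per1 had -1.21, Usp2 -1.14, Nampt -1.11, Bhlhe40 -1.04 and Nfil3 -0.92. Klf9 and Noct had -0.75 each, Tsc22d3 -0.55, Tspan4 -0.49, Arntl -0.45, Cry2 -0.34 and Csnk1e -0.31, whereas Cry1 had 0.50, Csnk1d 0.35 and Nr1d2 0.32 (0.30 and not called without normoxic 0 h replicate 2, adjusted p = 0.0845). Outside the clock, Srsf5, a splicing factor, had -0.46 and Cabp5, a calcium sensor of bipolar cells, 0.38 (0.33 and not called without that array, adjusted p = 0.0904). Groups of 3 arrays are too small for a test of single outlying arrays.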

How the results depend on the processing

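None of the 44 named genes that changed reversed under any alternative run. Values that were not called could turn. With the lens score the median of the core clock went from -0.0145 to 0.0448 and that of the cyclic AMP targets from -0.0986 to 0.0585. The median of the lens genes went from 2.01 to -0.047, a shift built in because the score is the mean of these same genes. Of the 44 named genes that changed, 18 kept their call without any single array and 6 lost it without each of the 6. Without 0 h replicate 2, 21 were called (9 rises, 12 falls), with the lens score as covariate, chosen after seeing the data, 13 (3 and 10), with the replicate block in the 6 arrays alone 7 (3 and 4), and with the block over all arrays 43, all but Gnat2. The block over all arrays changed no other call of a gene that had changed. Among calls lost with the lens score, some changes kept their size and others shrank. Guca1a went from -0.24 to -0.26, Gnaz from 0.49 to 0.51 and Cirbp from -0.66 to -0.63. Igfbp7, in contrast, went from 1.78 to 0.66 and Col4a1 from 1.48 to 0.58. The 394 changed probe sets became 135 with no filter, 53 in a fit of the 6 arrays alone, 9 with the replicate block there, 43 with the lens score, 870 at an adjusted p under 0.1, 184 in the 12 normoxic arrays alone, and 0 (adjusted) or 92 (unadjusted p under 0.001) by the methods' t-test, where 2912 had an unadjusted limma p under 0.05. Leaving out single arrays gave 81 to 340. The 37 beyond 2-fold became 19, 17, 7, 6, 66, 24, 0 and 8 under the same settings in that order and 60 with array quality weights, or 13 to 78 without single arrays. For 2 h against 0 h, 92 became 0 with no filter, 61 with median centring, 339 with weights, 0 in its arrays alone, 42 with the block there, 239 with the block over all arrays, 0 with the lens score, 382 at 0.1, and 1 or 51 by the t-test, or 0 to 553 without single arrays (2556 at an unadjusted limma p under 0.05), 0 without 2 h replicate 2 or 0 h replicate 2 and 553 without 2 h replicate 3. For 4 h against 2 h, 16 became 4 with no filter, 532 with weights, 0 in its arrays alone with or without the block, 33 at 0.1, 0 in the normoxic arrays, and 0 or 31 by the t-test, or 0 to 284 (1776 unadjusted), the 0 without 4 h replicate 2 and the 284 without 2 h replicate 3. For 16 h against 4 h, 977 became 381, 1505 with weights, 35 and 0 (block) in its arrays alone, 1847, 24, and 1 or 99, or 133 to 1287 (3869 unadjusted), and for 16 h against 0 h, 989 became 328, 0 and 0 (block), 529 with the lens score, 1981, 39, and 0 or 76, or 106 to 1082 (4100 unadjusted). Both lowest counts came without 16 h replicate 3 and both highest without 16 h replicate 2. The difference between hypoxic and normoxic changes stayed between 2831 and 3447 without single arrays. The cause of these shifts was not tested, apart from fewer residual degrees of freedom in fits of fewer arrays. Id3 (0.55, adjusted p = 0.0547) was called under some settings.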

Other observations

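Some genes that changed belong to symbol families, grouped after the data were seen. Of 76 tested Mrpl and Mrps genes, which encode proteins of the mitochondrial ribosome, 6 fell by their brightest probe set (1.37% of all probe sets fell) and 70 had a negative change, with a median of -0.154 (-0.134 after quantile normalization and -0.161 after median centring). Over all 18480 probe sets tested, 11003 had a negative change. Mrpl15 went from 7.86, 7.82 and 7.95 to 7.23, 7.36 and 7.19 (-0.61, adjusted p = 0.000902) at 1 of its 6 tested probe sets, and the others that fell, Mrpl13, Mrpl21, Mrpl22, Mrpl58, Mrps18b and Mrps35, lay between -0.22 and -0.36. The family's 6 calls became 2 after quantile normalization and 0 without 0 h replicate 2 or any 4 h array, with the lens covariate and with the block in the 6 arrays alone. The respiratory chain, with 22 genes measured, and the cytosolic ribosome, with 11, had medians of -0.0459 and 0.0106 and 0 calls in limma (4 and 1 at an unadjusted p under 0.05). Of 6 tested Haus genes, subunits of the augmin complex that branches microtubules, 2 fell by their brightest probe set and all 6 had a negative change (median -0.247), and of 18 tested Nup genes of the nuclear pore 2 fell (median -0.185), against 1.37% of all probe sets. The Haus calls fell to 0 without 0 h replicate 1 or 3 or 4 h replicate 1 or 2, the Nup calls to 0 without any array but 0 h replicate 1, both to 0 with the block in the 6 arrays alone and both to 1 after quantile normalization. Of 5 tested Col4a genes 3 rose (median 1.1), against 0.758% of all probe sets, and 0 of the 3 calls held without 0 h replicate 2.

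Single genes picked after their values were seen add the following. Aqp1, a water channel, rose from 10.79, 10.73 and 10.64 to 11.46, 11.54 and 11.44 (0.76, adjusted p = 0.000977) and by 1.27 in hypoxic retina. Ednrb, the endothelin receptor of Müller glia, rose by 0.73 (adjusted p = 0.00287) and by 1.01 in hypoxic retina. Ccnd2, a G1 cyclin, rose at all 4 of its tested probe sets, by 0.82 to 1.18. Fam107a, an actin-bundling protein induced by stress hormones, rose by 0.74 and 0.71 at its 2 probe sets but fell by 0.76 and 0.74 in hypoxic retina. Timp3, an inhibitor of matrix proteases, rose by 0.66 at 1 of its probe sets, which fell by 0.79 in hypoxic retina. Pcare, a protein of the photoreceptor outer segment, fell from 12.13, 12.28 and 11.84 to 11.49, 11.51 and 11.43 (-0.61, adjusted p = 0.00841). Acadm and Acat1, enzymes of fatty acid and ketone metabolism, fell by 0.55 and 0.53 (adjusted p = 0.0027 and 0.00172), and Cpt1a, which brings fatty acids into mitochondria, by 0.47 (adjusted p = 0.0134). Acadm rose by 0.39 in hypoxic retina. Asrgl1, an asparaginase found in photoreceptors, fell at all 4 of its tested probe sets, by 0.42 to 0.51.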
